A study of Mus musculus with 2 samples.

Results

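Eosinophil lineage progenitors were the cells of mouse bone marrow that held transcripts of both eosinophil peroxidase (Epx) and the major basic protein (Prg2) and few basophil protease transcripts. Unique molecular identifiers (UMIs) count single captured RNA molecules. Barcodes counted as cells from 1000 UMIs and 500 genes upward, provided that mitochondrial genes took no more than 10% of the UMIs. Of these cells, members had at least 2 Epx UMIs, at least 2 Prg2 UMIs, and fewer than 10 UMIs of Mcpt8 plus Prss34 per 10,000. This rule found 76 cells among 23283, namely 31 of 11932 in the FMT-young library and 45 of 11351 in the FMT-aged library. The cells were thus chosen by their counts of Epx, Prg2, Mcpt8 and Prss34, and the levels of these genes are a description that supports nothing.

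The recipients of both groups were aged mice of the C57BL/6J strain, given a fecal transplant of young gut microbiota in FMT-young and of aged gut microbiota in FMT-aged, and their bone marrow was profiled. For each, whole marrow, lineage-negative cells and lineage-negative cKit+ progenitors were sorted and mixed, with cKit+ progenitors as 4 parts of the mix, so every share of cells below is a share of that mix and not of marrow. RNA was sequenced from the 3′ end of transcripts in droplets, with 1 library per group, and the number of animals behind each is not stated in the labels. The ages, the donors' strain and any mouse without a transplant are not given in the labels. With 1 library per group no difference between FMT-young and FMT-aged could be tested. Intervals are exact 95% intervals that cover counting error only, and the values describe these 2 libraries.

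Eosinophils arise in the marrow from granulocyte progenitors that make the cationic granule proteins before they leave for blood and tissue. Prg2 encodes the protein of the crystalline granule core, Prg3 a homologue of it, Epx the peroxidase of the granule matrix, and the Ear genes the eosinophil-associated ribonucleases. Interleukin 5, bound by the receptor chain Il5ra together with the shared chain Csf2rb, is the main growth factor of the lineage. C/EBP-epsilon (Cebpe) and GATA factors are transcription factors of the lineage, and basophils and mast cells share part of that GATA program. Elane, Mpo and Prtn3 encode primary (azurophil) granule proteins of neutrophil progenitors.

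The deposited matrices held 214982156 UMIs in FMT-young and 207642851 in FMT-aged. Members had 1425 to 50998 UMIs in FMT-young, with a median of 14422, and 2211 to 61031 in FMT-aged, with a median of 14190. The medians over all cells taken were 12438.5 and 13000. Of the barcodes taken, 34 occurred in both libraries, and 0 of these were members. A doublet score ranked 5 FMT-young and 4 FMT-aged members among the top scores expected to be doublets, and none was removed. These were 16.1% and 8.89% of members, beside 9.55% and 9.08% of all cells taken. Leaving these members out left 26 and 41.

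The label was checked against other lineage and cell type markers. Among the members, 2 kinds stood apart: cells with many immunoglobulin kappa (Igkc) transcripts and cells with later neutrophil granule transcripts (Ngp, Camp, Ltf). Limits chosen after seeing the data, of 100 Igkc UMIs, 10 Ngp plus Camp plus Ltf UMIs and 20 Cd74 UMIs per 10,000, left 25 members in FMT-young and 32 in FMT-aged, 57 in all. The 19 members over a limit were 6 in FMT-young and 13 in FMT-aged, or 19.4% and 28.9% of members. Of all cells taken, 41.2% in FMT-young and 27.5% in FMT-aged lay over a limit. In FMT-young 4 of the 6 passed the Igkc limit. In FMT-aged 10 of the 13 passed the Igkc limit and 11 the neutrophil limit. Of the 6 and 13, 5 and 3 also had a top doublet score. Values below are given for the 57 members within limits, and for all 76 where the text says so.

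In FMT-aged, 9 members passed both the Igkc and the neutrophil limit, and they resembled one another. They had 3605 to 8771 UMIs, 2 to 4 Epx UMIs, 10 to 35 Prg2 UMIs and 0 or 1 Prg3 UMI. Their Igkc level was 155 to 292 UMIs per 10,000, their S100a8 level 90.6 to 168 and their Ngp level 25.2 to 53.1, and 1 of the 9 had a UMI of Cpa3, a granule carboxypeptidase shared by mast cells, basophils and early progenitors. In that library 65 cells had 100 to 400 Igkc and 50 to 200 later neutrophil UMIs per 10,000, 26 of them had an Epx UMI, and their summed Prg2 was 26.9 per 10,000. In FMT-young 84 cells lay in the same range, 0 had an Epx UMI, and their summed Prg2 was 0.128 per 10,000. This range encloses the 9 FMT-aged members, so it is fitted to that library. Outside it, the 4 FMT-young members over the Igkc limit had Igkc at 372, 1048, 1186 and 1251 per 10,000. They held 452, 17, 43 and 2 S100a8 UMIs, of totals of 50998, 2986, 2977 and 43469 UMIs. Their later neutrophil sums were low, at 1.37, 0, 3.36 and 0 per 10,000. Epx-bearing cells in this range were thus present in FMT-aged and not seen in FMT-young, and what produced them was not tested.

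Within the limits, immunoglobulin transcripts were still present, while other defining genes of B cells, plasma cells and erythroid cells were mostly at 0. Of 10 B cell markers 7 had no UMI in each library's members, Pax5 and Ebf1 among them in both, and the list summed to at most 1.96 and 1.95 UMIs per 10,000 in a cell. The plasma cell genes Sdc1 and Tnfrsf17 had no UMI in either, but the plasma cell list summed to 2062 counts per 1000000 UMIs (CPM) in FMT-young and 732 CPM in FMT-aged. Most of that was Igkc, at 1146 CPM in 25 of 25 cells and 341 CPM in 30 of 32 cells, and Ighm, at 656 and 199 CPM. Free RNA held Igkc at 53117 and 28080 CPM and Ighm at 30809 and 14109 CPM, and its part in the members' immunoglobulin counts was not tested. Of 11 erythroid markers 8 and 7 had no UMI, globin genes included, and the list summed to 163 and 173 CPM. Summed later neutrophil markers ran from 0 to 28.1 per 10,000 in FMT-young cells, with a median of 5.27, and from 0 to 9.05 in FMT-aged, with a median of 2.21. Over the limits the medians of that sum were 126 and 430. The basophil marker sum was 5.22 to 48.4 per 10,000 within limits in FMT-young and 3.09 to 47.2 in FMT-aged, with medians of 16.5 and 14.4, so every member within limits held transcripts of that list, which includes genes shared with mast cells and progenitors.

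The threshold on Epx lay in sparse counts. Epx was exactly 2 UMIs in 4 FMT-young and 7 FMT-aged members, whose median Prg2 counts were 9.5 and 16 UMIs. Just outside it, 11 and 28 cells had exactly 1 Epx UMI and at least 1 Prg2 UMI, with median Prg2 counts of 12 and 12.5. On the Prg2 side, 4 and 2 cells had at least 2 Epx UMIs with 0 or 1 Prg2 UMI. The basophil limit removed 1 cell in FMT-young, with 32.7 Mcpt8 plus Prss34 UMIs per 10,000, and 5 cells in FMT-aged, with 16.9 to 162. The highest values among members were 7.49 and 7.81.

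Members were rare in both libraries. They made up 0.260% of cells in FMT-young (exact Clopper-Pearson interval 0.177 to 0.369) and 0.396% in FMT-aged (0.289 to 0.530), a log2 ratio of FMT-young over FMT-aged of -0.61 with an interval of -1.32 to 0.08. Within limits the shares were 0.210% (0.136 to 0.309) and 0.282% (0.193 to 0.398), with a log2 ratio of -0.43 (-1.24 to 0.37). Both intervals include 0. Other cell rules moved this: with 1 UMI of Epx and Prg2 as the minimum (44 and 74 cells) the ratio was -0.82 (-1.39 to -0.26), with no basophil limit (32 and 50) -0.72 (-1.40 to -0.05) and with a mitochondrial limit of 5% (26 and 41) -0.79 (-1.56 to -0.05). With Epx and Prg2 each at 5 or more per 10,000 (28 and 28) it was -0.07 (-0.88 to 0.74). None of these is a test of the transplant, since each group is 1 library. Cells of the basophil gate (at least 10 Mcpt8 plus Prss34 UMIs per 10,000) were more frequent than members in both libraries, at 1.36% (162 cells) and 2.30% (261 cells).

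Of the granule protein genes, Prg2 stood far above the others in members. Within limits Prg2 per 10,000 UMIs was 6.49 in the lowest FMT-young cell, 430 in the median cell and 1343 in the highest. The FMT-aged cells had 2.05, 325 and 1088. The range of the FMT-aged cells covered most of that of the FMT-young cells, and single cells of 1 library differed more than 100-fold. Epx was 0.81, 15.4 and 36.8 per 10,000 in the lowest, median and highest FMT-young cells and 1.03, 14.2 and 58.2 in the FMT-aged cells. Prg3, which the rule did not use, was 2.84, 22.7 and 68.7 in FMT-young and 0, 21.5 and 74.8 in FMT-aged.

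Over all 76 members, Prg3 had a UMI in 29 of 31 FMT-young and 40 of 45 FMT-aged cells. The highest single cell held 1465 Prg2 UMIs in FMT-young and 1125 in FMT-aged. The ratio of Prg2 to Epx UMIs within limits ran from 4.68 to 200 in FMT-young, with a median of 23.5, and from 1.82 to 433 in FMT-aged, with a median of 16.3. The highest ratios came from cells with few Epx UMIs, where the minimum of 2 and counting error weigh on the ratio, and both genes chose the cells. Across cells within limits, Spearman's rho of Prg2 with Prg3 was 0.45 in FMT-young (25 cells) and 0.65 in FMT-aged (32 cells), and that of Prg2 with Epx 0.24 and 0.58. These are descriptions over cells that share a library and a total, and the rho of Prg2 with the cell's UMI total was -0.63 in FMT-aged and -0.11 in FMT-young.

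As a summed level in CPM within limits, Prg2 was at 41670 in FMT-young and 24106 in FMT-aged, Prg3 at 2533 and 2296, and Epx at 1453 and 1356. The basophil gate held Prg3 at 25.3 and 47.2 CPM, and the gate of primary granule cells (at least 20 Elane plus Mpo plus Prtn3 UMIs per 10,000, no Epx and few basophil transcripts) held it at 6.00 and 6.10. Members contained 93.3% of the Epx UMIs of all cells taken in FMT-young and 86.5% in FMT-aged. They contained 60.4% and 62.1% of the Prg2 UMIs and 45.4% and 51.8% of the Prg3 UMIs, so a large part of both sat in cells that did not meet the rule.

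The ribonuclease genes were detected in a minority of members. Ear1, Ear2 or Ear6 had a UMI in 14 of 31 FMT-young and 14 of 45 FMT-aged members. Within limits Ear1 had 103 UMIs in 9 of 25 FMT-young cells and 34 UMIs in 3 of 32 FMT-aged cells, of which 31 and 24 were in 1 cell. Ear2 had 41 UMIs in 8 cells and 9 UMIs in 5 cells, and Ear6 had 26 UMIs in 9 cells and 10 UMIs in 4 cells. The summed Ear1 level was 323 CPM (264 to 392) in FMT-young and 64.5 CPM (44.6 to 90.1) in FMT-aged, with most of it in a few cells. Ear10, Ear14, Rnase2a and Rnase2b had 0 UMIs in members. The Ear genes are related copies, so the split of reads among them can be uncertain, and it was not checked.

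The 250 bases before the start of 5 granule genes are shown because these genes encode the granule proteins of the lineage and the Ear copies are close in sequence. They come from RefSeq promoter windows on GRCm38.p6, printed 5′ to 3′ on the gene's strand. Capitals mark matches to 4 motifs, searched on both strands, and no matches overlapped in these windows. The motif of GATA factors was searched as GATAA. That of C/EBP factors was searched as TTGCNNAA. The TATA box was searched as TATAAA. The motif of PU.1 was searched as GAGGAA. The windows are chr11:87875537-87875786 on the minus strand for Epx, chr2:84987965-84988214 on the plus strand for Prg3, chr14:43819640-43819889 on the minus strand for Ear1, chr14:44102404-44102653 on the plus strand for Ear2 and chr14:51853518-51853767 on the plus strand for Ear6.
Epx: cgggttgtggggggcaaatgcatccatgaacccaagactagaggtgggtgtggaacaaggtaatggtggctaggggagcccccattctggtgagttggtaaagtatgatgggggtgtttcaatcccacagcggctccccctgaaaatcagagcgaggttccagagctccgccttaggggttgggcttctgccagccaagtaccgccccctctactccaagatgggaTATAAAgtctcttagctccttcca
Prg3: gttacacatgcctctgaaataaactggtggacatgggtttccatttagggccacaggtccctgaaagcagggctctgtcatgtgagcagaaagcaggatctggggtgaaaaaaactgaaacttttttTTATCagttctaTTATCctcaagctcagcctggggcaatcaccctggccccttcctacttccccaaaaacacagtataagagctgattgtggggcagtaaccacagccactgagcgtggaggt
Ear1: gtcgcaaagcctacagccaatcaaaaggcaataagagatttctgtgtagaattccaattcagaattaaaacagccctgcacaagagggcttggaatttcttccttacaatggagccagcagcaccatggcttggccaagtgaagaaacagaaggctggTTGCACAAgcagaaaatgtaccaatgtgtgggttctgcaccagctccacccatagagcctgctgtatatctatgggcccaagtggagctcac
Ear2: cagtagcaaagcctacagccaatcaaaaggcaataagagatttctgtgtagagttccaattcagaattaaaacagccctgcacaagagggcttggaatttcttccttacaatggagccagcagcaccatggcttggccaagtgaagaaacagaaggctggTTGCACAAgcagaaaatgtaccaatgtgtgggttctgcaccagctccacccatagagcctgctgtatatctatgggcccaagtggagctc
Ear6: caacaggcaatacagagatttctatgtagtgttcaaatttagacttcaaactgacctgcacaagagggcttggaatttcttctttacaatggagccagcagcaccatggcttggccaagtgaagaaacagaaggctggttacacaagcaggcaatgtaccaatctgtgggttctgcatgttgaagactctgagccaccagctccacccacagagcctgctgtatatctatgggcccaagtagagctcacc

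The Epx window held a TATAAA match that began 24 bases before the start. The Prg3 window held 2 GATAA matches, read as TTATC on the gene's strand, 123 and 111 bases before the start. Ear1 and Ear2 each held 1 TTGCNNAA match, 92 and 90 bases before the start, and Ear6 held no match to the 4 motifs. Of 32851 RefSeq promoter windows of the same length, 22.6% hold the GATA motif, 9.56% the C/EBP motif, 12.4% the TATA box and 23.3% the PU.1 motif, so each match is a description of the letters and not a site. Ear1 and Ear2 had the same base at 246 of 248 aligned positions (99.2%), Ear1 and Ear6 at 212 of 229 (92.6%), and Ear2 and Ear6 at 211 of 227 (93.0%).

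Of the genes themselves, Prg2 (chromosome 2, 84980461 to 84983632) and Prg3 (chromosome 2, 84988215 to 84993886) are neighbours on the plus strand in the GENCODE vM21 annotation of GRCm38. Epx is on chromosome 11 (87864000 to 87875536, minus strand). Ear1, Ear2 and Ear6 are all on chromosome 14. The RefSeq windows of Epx, Prg3 and Ear2 end at the base before the GENCODE gene, while those of Ear1 and Ear6 lie inside or across the start of the longer GENCODE gene (43818765 to 43875517 for Ear1 and 51853699 to 51854643 for Ear6). Il5ra is on chromosome 6 (106710357 to 106749037, minus strand) and Siglecf on chromosome 7 (43351341 to 43359531, plus strand).

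Among receptors, Il5ra, the interleukin 5 receptor chain named as a marker of the cells, was present at few UMIs. Within limits it had 0 to 2 UMIs per cell in FMT-young, with a UMI in 10 of 25 cells, and 0 to 3 in FMT-aged, with a UMI in 15 of 32. The shares of 40.0% and 46.9% compare with 1.23% and 2.30% in the basophil gate and 2.89% and 1.69% in the primary granule gate. After thinning each cell to 2000 UMIs the member shares were 4.17% of 24 cells and 9.38% of 32 cells. Those of the primary granule gate were 0.423% and 0.206%. No thinned share is given for the basophil gate, whose cells were less deep, with median UMIs of 8339.5 and 8559 against 14422 and 15612 in members. The level was 34.5 CPM (17.2 to 61.8) in FMT-young and 39.8 CPM (24.7 to 60.9) in FMT-aged, against 5.73 and 4.42 CPM in barcodes of free RNA under 100 UMIs. Members with an Il5ra UMI had a median Prg2 of 474 per 10,000 in FMT-young and those without 390, and the FMT-aged medians were 342 and 307.

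Siglecf, a sialic acid binding lectin of eosinophils, was at 72.2 and 75.9 CPM within limits and had a UMI in 15 of 25 and 19 of 32 cells. Its levels in the basophil gate were 12.7 and 14.8 CPM and in the primary granule gate 14.1 and 12.1 CPM. P2ry14, a receptor for UDP sugars, was at 62.8 and 51.2 CPM, against 16.9 and 17.3 in the basophil gate and 3.18 and 4.63 in the primary granule gate. Csf2rb, the chain shared with the interleukin 3 and GM-CSF receptors, was at 116 and 74.0 CPM in members and at 166 and 190 in the basophil gate.

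Some receptors of mature eosinophils had no UMI in members, although Siglecf and Il5ra were detected. Ccr3, the eotaxin receptor, C3ar1, Ptgdr2 and Hrh4 had 0 UMIs in all 76 members, and so did Alox15, an arachidonate lipoxygenase. A count of 0 allows up to 6.36 CPM in the FMT-young members and 4.27 CPM in the FMT-aged members. Of 13 genes of the receptor and surface list with enough UMIs, 1 was past 2-fold higher than in the basophil gate in both libraries (P2ry14). Of the same 13, 4 were past 2-fold lower (Csf2rb2, Cxcr4, Il1rl1, Itgb7). Siglecf and Il5ra did not reach the UMI minimum in this comparison and are not among the 13, although both were higher in members by the values above. Over all 5130 genes tested, 0.936% were past 2-fold higher and 3.29% lower. Against the primary granule gate, 4 of 17 were higher (Adgre1, Il5ra, P2ry14, Siglecf) and 1 lower (Il4ra), where 6.98% and 3.8% of 12443 genes were past 2-fold.

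Among transcription factors, Cebpe was higher in members than in both other gates. It had 1, 7 and 26 UMIs in the lowest, median and highest FMT-young cells within limits and 0, 10 and 31 in the FMT-aged cells, and was detected in 25 of 25 and 31 of 32. Its level was 716 CPM (626 to 815) in FMT-young and 673 CPM (605 to 747) in FMT-aged. In the basophil gate it was 50.6 and 61.6 CPM, and in the primary granule gate 148 and 124 CPM. The log2 ratio over the basophil gate was 3.82 (3.47 to 4.18) in FMT-young and 3.45 (3.19 to 3.71) in FMT-aged, and over the primary granule gate 2.27 (2.08 to 2.46) and 2.44 (2.28 to 2.59).

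Gata2, a GATA factor of stem cells, mast cells and basophils, lay between the gates. Its level within limits was 191 CPM (147 to 246) in FMT-young and 116 CPM (88.5 to 149) in FMT-aged, against 609 and 583 in the basophil gate and 12.7 and 12.7 in the primary granule gate. Gata1 was sparse, with 4 UMIs in 4 FMT-young cells and 22 UMIs in 14 FMT-aged cells. Ikzf2, an Ikaros family factor, was as high in members (345 and 336 CPM) as in the basophil gate (314 and 231 CPM) and far above the primary granule gate (21.3 and 26.6 CPM). Trib1, a pseudokinase that directs degradation of C/EBP-alpha, was at 195 and 138 CPM, above both gates, at 73.3 and 60.1 CPM in the basophil and 38.3 and 23.5 CPM in the primary granule gate.

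Cebpa was lower in members, at 59.7 and 43.6 CPM against 170 and 193 in the basophil gate. Irf8, a factor of monocyte and dendritic cell progenitors, had 1 UMI in FMT-young and 10 in FMT-aged members within limits, or 3.14 and 19.0 CPM, against 68.0 and 65.4 CPM in the basophil and 224 and 244 CPM in the primary granule gate. Spi1, encoding PU.1, was at similar levels in members (201 and 182 CPM) and primary granule cells (230 and 218 CPM). Myb, a factor of dividing progenitors, was at 1155 and 1124 CPM in members against 372 and 396 CPM in the basophil gate. Of 19 lineage factors tested against the basophil gate, 3 were past 2-fold higher in both libraries (Cebpe, Myb, Trib1) and 6 lower (Cebpa, Cebpb, Gata2, Id1, Id2, Irf8), beside 0.936% and 3.29% of all genes. Of 22 tested against the primary granule gate, 6 were higher (Cebpe, Gata2, Ikzf2, Myb, Trib1, Zfpm1) and 4 lower (Cebpb, Id1, Id2, Irf8), beside 6.98% and 3.8% of all genes.

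**Figure D1:**
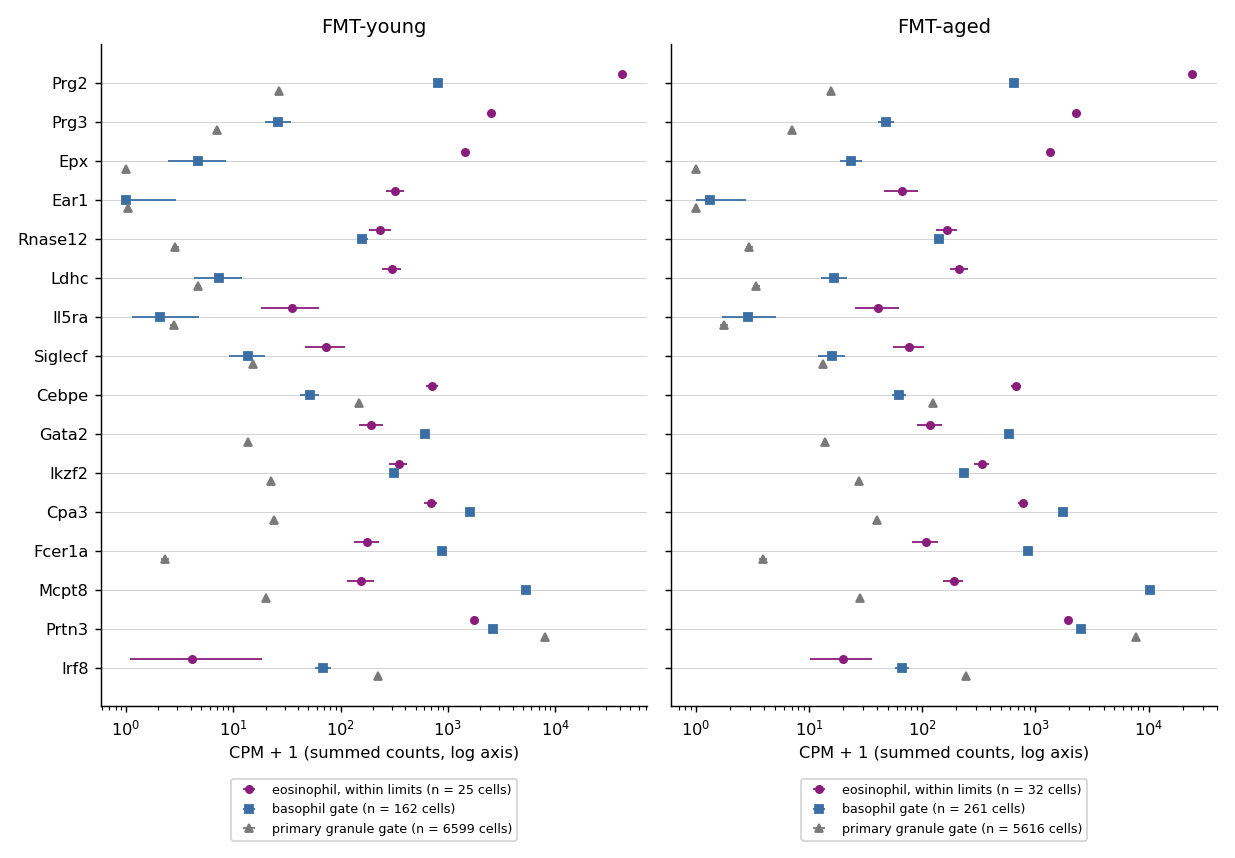
Summed level of 16 genes (CPM plus 1, log axis) in FMT-young (left) and FMT-aged (right) for members within limits, the basophil gate and the primary granule gate, with exact 95% Poisson intervals. Cebpe is highest in members in both libraries, Gata2, Cpa3 and Fcer1a lie between the other gates, and Prtn3 and Irf8 are lower than in the primary granule gate. Prtn3 helps to define that gate.

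Members carried basophil and mast cell transcripts at lower levels than basophil gate cells. Cpa3 was 0, 6.26 and 23.1 UMIs per 10,000 in the lowest, median and highest FMT-young cells and 0, 7.13 and 23.5 in FMT-aged cells, with a UMI in 23 of 25 and 30 of 32. Its summed level was 691 CPM (602 to 788) and 768 CPM (695 to 846), against 1592 and 1741 in the basophil gate and 23.2 and 38.9 in the primary granule gate. Fcer1a, the alpha chain of the IgE receptor, was at 176 and 106 CPM in 11 of 25 and 10 of 32 cells, and at 877 and 863 CPM in the basophil gate. Hdc, the enzyme that makes histamine, was at 421 and 347 CPM in members and 564 and 457 in the basophil gate. Of 8 basophil markers tested, 7 were past 2-fold lower than in the basophil gate in both libraries, beside 3.29% of all genes. The rules of both gates partly set this. Against the primary granule gate, 7 of 7 tested were past 2-fold higher, beside 6.98% of all genes, with median log2 ratios of 3.51 and 3.95. The medians over all genes in the comparison with the primary granule gate were 0.09 and 0.04.

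Primary granule transcripts were present in members and lower than in primary granule cells for Elane and Prtn3. Elane, neutrophil elastase, was at 4203 and 3800 CPM against 9615 and 8532, and Prtn3, proteinase 3, at 1764 and 1955 CPM against 8040 and 7725. Mpo, myeloperoxidase, was at 6457 and 7833 CPM in members, close to the 7573 and 8524 CPM of primary granule cells. Free RNA held Elane at 5249 and 4781 CPM, which is above its level in members. Igkc, for comparison, was in members within limits at 2.16% and 1.22% of its free RNA level. The part of free RNA in the primary granule transcripts was not tested.

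Compared with all other cells taken, 725 of 13326 genes were past 2-fold higher in all members in both libraries (5.44%) and 576 lower (4.32%). The same cells define this contrast, so its leading genes are a description. After the granule genes they were Ldhc, a lactate dehydrogenase best known from testis, with log2 ratios of 6.08 in FMT-young and 6.14 in FMT-aged, and Rnase12, a ribonuclease A family gene, with 5.90 and 5.04. Itga2b, the integrin alpha IIb chain, followed with 3.96 and 3.48, Arsb, a lysosomal arylsulfatase, with 2.62 and 2.39, and Cd63, a tetraspanin of granule membranes, with 2.08 and 2.26. The glycosyltransferase genes Galnt6 (2.53 and 2.07) and Fut8 (1.52 and 1.45) were also among the 25 leading genes.

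Some of these leading genes were at like levels in the basophil gate. Rnase12 was at 232 and 163 CPM in members and 159 and 140 CPM in the basophil gate, and Itga2b at 166 and 212 against 186 and 217 CPM. Ldhc differed, at 298 and 211 CPM in members, 6.33 and 15.7 CPM in the basophil gate and 3.69 and 2.41 CPM in the primary granule gate.

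Set against the basophil gate directly, all members differed in few genes: 46 of 5356 were past 2-fold higher in both libraries (0.859%) and 121 lower (2.26%). The higher genes led with Epx, Prg3, Prg2, Ldhc and Cebpe. Ctsh, a lysosomal cathepsin, followed with log2 ratios of 2.10 and 2.37, Nrgn, a calmodulin-binding protein known from neurons, with 2.14 and 2.49, and Pcnx with 2.21 and 2.10. The lower genes, beside Mcpt8 and Prss34, were Cyp4f18 with 0 and 3 UMIs in members against 68.5 and 126 CPM in the basophil gate, Cd200r3, an activating receptor of basophils and mast cells (-4.79 and -5.78), Padi2 (-4.75 and -4.23), Cyp11a1, the first enzyme of steroid synthesis (-4.45 and -3.70), Alox5, the first enzyme of leukotriene synthesis (-3.69 and -3.43), and Ms4a2, the beta chain of the IgE receptor (-3.44 and -3.41).

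**Figure D2:**
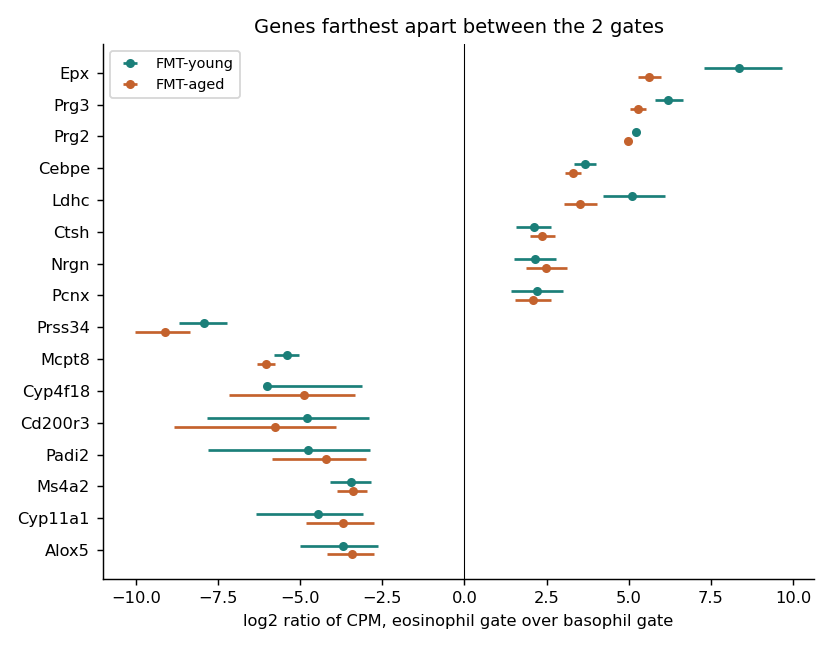
Log2 ratio of summed CPM in all members over the basophil gate, for the 8 genes farthest apart in each direction in both libraries, with exact 95% intervals (no lower end is drawn where the count in members is 0). Cebpe and Ldhc lie above 2-fold and Ms4a2 and Alox5 below it in both libraries. Epx, Prg2, Mcpt8 and Prss34 were used to choose the cells.

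Against the primary granule gate, 541 of 12444 genes were past 2-fold higher in all members in both libraries (4.35%) and 319 lower (2.56%). Beside granule and basophil genes, the higher genes included Mylk3 (log2 ratios 5.65 and 5.29), a myosin light chain kinase, and Fgf3 (5.58 and 4.97), a fibroblast growth factor. The first-ranked lower gene was Igha (-3.47 and -4.02), the IgA heavy chain. Others of the 8 named were F13a1 (-4.25 and -2.93) and Ly6c2 (-3.45 and -2.36), both of monocyte progenitors, Fcnb (-2.72 and -2.61), a ficolin of promyelocytes, Irf8 (-2.33 and -2.10) and Prtn3 (-1.74 and -1.67), which defines the reference gate. Within limits, 9 of 10 monocyte markers and 11 of 13 later neutrophil markers tested were past 2-fold lower in members in both libraries, beside 3.8% of all genes. Ngp, Camp and Ltf were used to set the limits, which took cells out of members but not out of the primary granule gate. In that gate 2168 FMT-young and 860 FMT-aged cells lay over a limit, so the later neutrophil count is partly set by the limits. In all members the later neutrophil markers summed to 7508 CPM in FMT-young and 14043 CPM in FMT-aged, against 15440 and 7478 CPM in that gate. Of 21 secretory and endoplasmic reticulum genes, 0 were past 2-fold in either direction.

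Members within limits were ordered by the sum of the 6 granule genes per 10,000 UMIs and cut into 3 equal bins of 19 cells, with sums of 3.08 to 248, 268 to 570 and 574 to 1420. Granule genes set the bins, so they are not a result. The lowest bin held 7 FMT-young and 12 FMT-aged cells, the middle bin 8 and 11, and the highest bin 10 and 9. Median UMIs per cell were 19503, 14295 and 11904 along the bins. Of 2289 genes with enough UMIs, 787 were higher in the highest than in the lowest bin and 1502 lower. Past 2-fold were 52 higher (2.27%) and 155 lower (6.77%), with a median log2 ratio over all genes of -0.17.

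Cell cycle transcripts were lowest in the bin with the most granule transcripts. The G2 and M phase list summed to 4708, 4495 and 1843 CPM from the lowest to the highest bin, and the S phase list to 3674, 2440 and 1749 CPM. Of 20 S phase genes measured, 20 were lower in the highest bin and 10 past 2-fold, with a median log2 ratio of -0.97. Of all 2289 genes, 1502 were lower and 155 past 2-fold. Of 15 G2 and M phase genes, 14 were lower and 8 past 2-fold, with a median of -1.04. Top2a, a topoisomerase of dividing cells, was at 183, 180 and 65.5 CPM, and Mki67 at 119, 139 and 37.4 CPM. Ube2c was at 126 and 119 CPM in the lower bins and had 0 UMIs in the highest, as did Birc5 after 82.5 and 65.5 CPM. Within each library the G2 and M median was below 0, at -1.70 in FMT-young and -0.71 in FMT-aged. The S phase list rested more on the pooling: in FMT-aged alone 9 of 12 genes were lower and 1 past 2-fold, with a median of -0.28 and sums of 3836, 2291 and 2293 CPM. In FMT-young only 1 S phase gene had enough UMIs, and the list summed to 3216, 2630 and 1232 CPM.

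Primary granule transcripts were also lower in the bins with more granule transcripts. Mpo was at 8766, 7063 and 4971 CPM, Elane at 5056, 3275 and 2722 CPM, Prtn3 at 2779, 1187 and 1052 CPM and Ctsg at 2545, 1081 and 1155 CPM. Of 8 genes of this list, 8 were lower in the highest bin and 3 past 2-fold, with a median of -0.86 (-0.51 in FMT-young, -0.69 in FMT-aged). Of all 2289 genes, 1502 were lower and 155 past 2-fold. Elane per cell also ran with the UMI total, with a rho of 0.52 in FMT-young and 0.44 in FMT-aged, and the part of depth in this order was not tested.

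With both libraries together, basophil and mast cell transcripts were not lower in the highest bin. Of 6 basophil markers measured, 6 were higher in the highest bin and 2 past 2-fold, with a median of 0.78. In FMT-young alone 4 of 4 were higher and 1 past 2-fold, with a median of 0.62. In FMT-aged 5 of 5 were higher and 0 past 2-fold, with a median of 0.48. The 1 mast cell gene measured had a ratio of -0.06 in FMT-young and 0.79 in FMT-aged. Fcer1a was at 64.5, 139 and 248 CPM along the bins, while Cpa3 was level at 688, 790 and 772 CPM. Cebpe was at 539, 807 and 828 CPM, Rnase12 at 119, 201 and 304 CPM and Siglecf at 59.3, 69.6 and 108 CPM. Il5ra was at 30.9, 40.9 and 46.8 CPM, on too few UMIs to set an order.

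**Figure D3:**
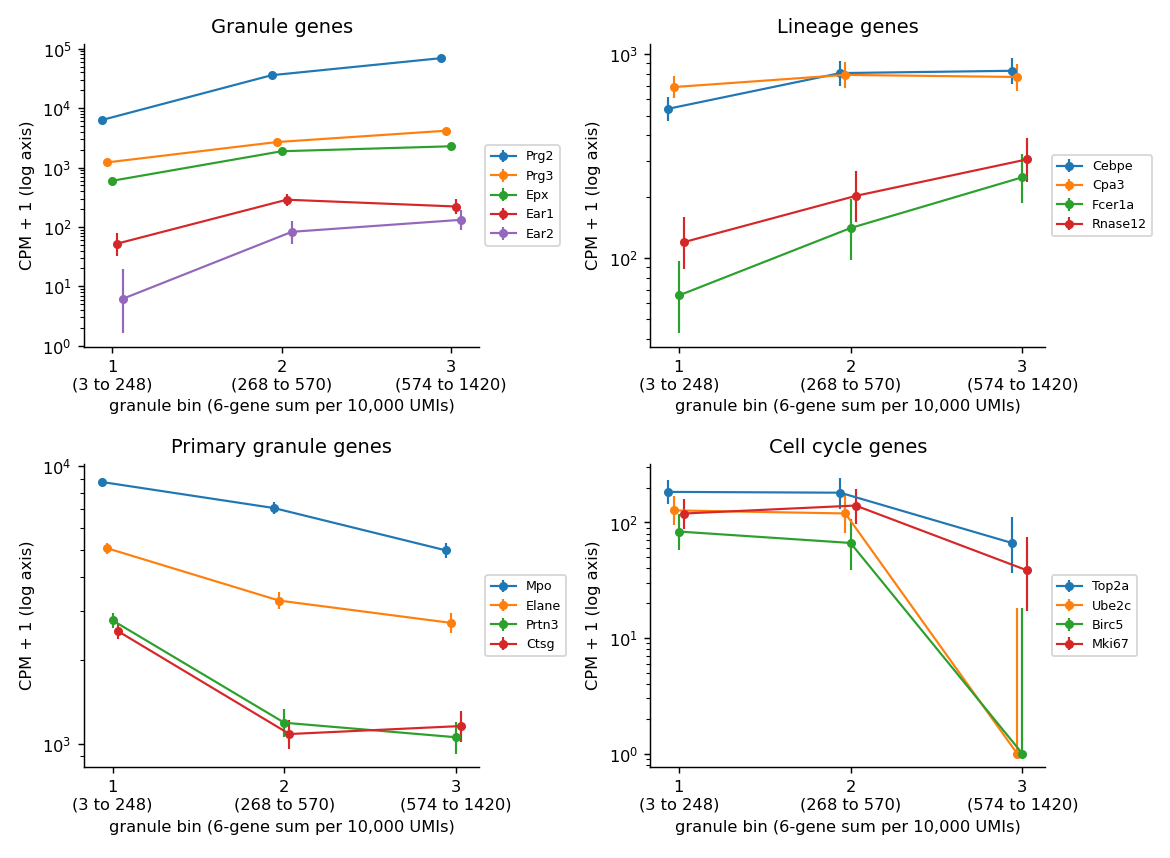
Summed level (CPM plus 1, log axis) along 3 bins of the granule sum, 19 members within limits each, both libraries together, with exact 95% Poisson intervals. Mpo, Elane and Prtn3 are lower with each bin, Top2a, Mki67, Ube2c and Birc5 are lowest in the highest bin, and Cebpe, Fcer1a and Rnase12 are higher there than in the lowest; the granule genes in the upper left panel set the order.

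After thinning to 2000 UMIs, at least 3 G2 and M phase UMIs were present in 24 of 30 of all FMT-young members (80.0%, exact interval 61.4 to 92.3) and in 40 of 45 of all FMT-aged members (88.9%). The shares in the basophil gate were 86.7% and 96.4%, and in the primary granule gate 94.0% and 95.7%. Within limits the member shares were 87.5% (21 of 24) and 84.4% (27 of 32), in the opposite order. Without thinning the shares of all members were 96.8% and 100%. Most members thus held transcripts of the division phases, and free RNA can add to such counts.

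Between the libraries, several lineage genes of members had ratios near 0. In all members Epx had a log2 ratio of FMT-young over FMT-aged of 0.10 (-0.06 to 0.26), Prg3 of 0.03 (-0.09 to 0.16), Cebpe of 0.08 (-0.14 to 0.30), Il5ra of 0.02 (-1.03 to 1.04), Siglecf of -0.24 (-1.01 to 0.50) and Cpa3 of 0.20 (-0.01 to 0.41). For each the interval covers 0, which leaves a difference undetected at this depth and does not show equal levels. Prg2 was higher in FMT-young by 0.55 (0.52 to 0.59) in all members and 0.79 (0.75 to 0.82) within limits, an interval that takes no account of the more than 100-fold spread among cells. Ear1 was higher by 2.18 (1.60 to 2.78), with most UMIs in a few cells. The median of the 5 granule genes measured, 0.55 in all members and 0.79 within limits, is the ratio of Prg2 itself, and it was -0.02 when only the upper bins of the granule sum were kept. Since Epx and Prg2 chose the cells, these values are a description.

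Over all members Gata2 was higher in FMT-young by 0.95 (0.46 to 1.44), and within limits by 0.73 (0.19 to 1.26). Gata1, on 6 and 23 UMIs in all members, had a ratio of -1.36 (-2.95 to -0.03). In the basophil gate the Gata2 ratio was 0.06. Fcer1a was higher in FMT-young by 0.71 (0.19 to 1.24) over all members and had a ratio of 0.02 in the basophil gate.

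Of 3067 genes with enough UMIs in all members, 59 were past 2-fold higher in FMT-young (1.92%) and 41 lower (1.34%), with a median log2 ratio of -0.07. Within limits 45 of 2289 genes were higher (1.97%) and 34 lower (1.49%). Immediate early genes, which are induced within minutes of a stimulus or of cell handling, lay to 1 side: 23 of 23 measured were higher in FMT-young members and 13 past 2-fold, with a median of 1.04. Egr1 had 364 UMIs in 29 of 31 FMT-young members and 113 UMIs in 32 of 45 FMT-aged members, a log2 ratio of 2.26 (1.96 to 2.58). Klf2 had a ratio of 2.11 (1.80 to 2.43), and Ier3 of 1.38 (0.97 to 1.79). The same direction held in the other gates, with a median of 1.38 over 26 genes in the basophil gate and 1.00 over 28 in the primary granule gate. The groups were 1 library each, so the transplant and the handling of the library cannot be told apart.

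Within limits the immediate early genes also differed along the granule bins, where 22 of 22 measured were higher in the highest than in the lowest bin and 9 past 2-fold, with a median of 0.84. In single libraries the median was 0.70 in FMT-young and 0.20 in FMT-aged. Klf6 was at 214, 610 and 631 CPM along the bins and Egr1 at 230, 639 and 477 CPM. In FMT-aged alone Egr1 was at 122, 337 and 105 CPM.

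Cell cycle lists differed in opposite directions between the libraries. Of 24 G2 and M phase genes measured in all members, 20 were higher in FMT-young and 4 lower, with a median of 0.46, and within limits 11 of 15 were higher, with a median of 0.30. The S phase list had 3 genes higher and 19 lower, with a median of -0.40 in all members and -0.43 within limits. In the basophil gate both lists were lower in FMT-young, with medians of -0.74 and -0.39. The primary granule gate had medians of -0.08 and -0.14, beside -0.09 over all genes there. Mki67 in members had a ratio of 1.40 (0.89 to 1.92) and Pcna, the replication clamp, of -0.81 (-1.28 to -0.35), while in the basophil gate Mki67 had -1.14 and Pcna -0.65. A difference of these ratios between the gates was not tested.

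**Figure D4:**
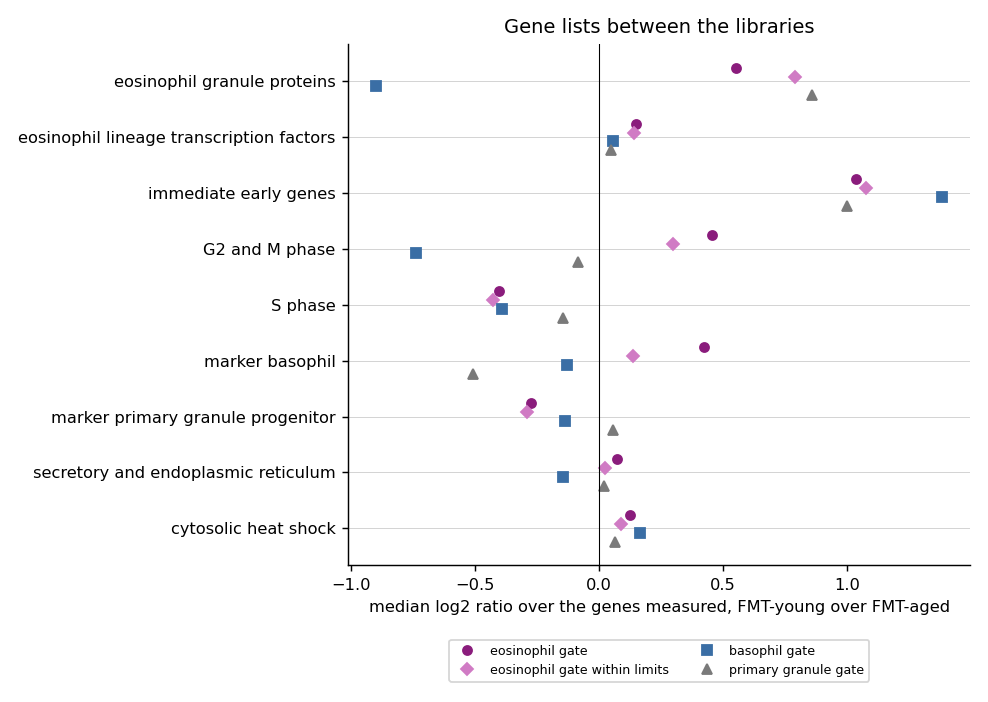
Median log2 ratio of FMT-young over FMT-aged for 9 gene lists, in all members, members within limits, the basophil gate and the primary granule gate. Immediate early genes lie near or above 1 in all 4 sets. The G2 and M list lies above 0 in members (0.46), below 0 in the basophil gate (-0.74) and near 0 in the primary granule gate (-0.08). The granule list includes Epx and Prg2, which chose the cells, and the lists hold different numbers of measured genes in each set.

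Some genes far apart between the libraries rested on single cells or on the cells over limits. Mzb1, a plasma cell chaperone, had a ratio of 4.37, with 225 of its 236 FMT-young UMIs in 1 cell. Enah had 0 UMIs in FMT-young and 89 in FMT-aged, 86 of them in 1 cell, and Atf3 had 32 of 55 in 1 cell. Over all members the later neutrophil genes Ngp, S100a9, Lcn2 and Ltf had ratios of -1.36, -1.20, -1.36 and -2.18. Within limits few UMIs of them were left, 6 in FMT-young and 4 in FMT-aged for Ngp, 41 and 32 for S100a9, 5 and 13 for Lcn2 and 2 and 3 for Ltf. Of these only S100a9 passed the minimum of 50 UMIs over both libraries, with a ratio of 1.08, and Ngp and Ltf had helped to set the limits. Lars2, a mitochondrial leucyl-tRNA synthetase gene, was lower in FMT-young in members (-1.18, -1.63 to -0.74), within limits (-1.08), in the basophil gate (-0.93) and in the primary granule gate (-1.11). Ctsg, cathepsin G, had -0.85 (-0.99 to -0.71) in members and -0.84 within limits, against -0.55 and -0.22 in the other gates. Cdca7, a cell cycle gene, had -1.42 in members, -1.51 within limits, and -0.27 and -0.24 in the other gates.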

How the data were processed

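Both libraries were made with the Chromium Single Cell 3' v3 kit, per the labels' protocols. The deposited matrices hold raw UMI counts per gene and barcode from Cell Ranger 3.1.0, per the file headers, aligned to mm10, per the submitters' processing notes. Filtering on cells, if any, beyond what the matrices hold is not given in the sources used here. The authors deposited no cell annotation used here, so cells were chosen by the counts of Epx, Prg2, Mcpt8 and Prss34 stated in the report.

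The members and the 28 gene lists were chosen with earlier results of these data known. UMI counts were summed per library and gate and divided by the summed UMIs to give CPM. Shares have exact Clopper-Pearson intervals, CPM exact Poisson intervals and ratios exact conditional binomial intervals, all at 95%. A prior count of 0.5 was used only in ratios where a count was 0. Genes compared between libraries or bins needed at least 50 UMIs over the members compared, and genes compared between gates at least 50 UMIs over both gates in each library. Called past 2-fold means a ratio of at least 2 with no test, since each group is 1 library. Contrasts between gates needed this fold in both libraries. The floor for 0 UMIs is 3 counts of the summed total. PCR duplicates are removed by UMIs, but cells of 1 library share their source, so no p-value was computed. Genes were named by rule, ranked by the interval bound nearest 0: the 25 leading over other cells (at least 100 UMIs), the 8 in each direction against each comparison gate and the 10 in each direction between libraries (at least 50 CPM in the higher), plus any gene of the lists of eosinophil biology. Others, such as those of the granule bins, were chosen after their values were seen. Thinning drew 2000 UMIs per cell, and 1 FMT-young member had fewer. Doublets were scored with Scrublet in scanpy 1.11.5, marking the top 0.8% per 1000 cells, and not removed. Free RNA was read from barcodes under 100 UMIs. Promoter windows and motif matches came from the RefSeq table of GRCm38.p6, which matched 5 of the genes shown, and gene positions from GENCODE vM21. The ratio step was tested on simulated data. Analyses used Python 3.11.15, numpy 2.4.6, scipy 1.17.1, pandas 2.3.3, matplotlib 3.10.9, and R 4.3.3 with edgeR 4.0.16 for 1 scaling alternative. In all, 19 alternatives were run, 2 of them added after seeing the data. A gene that the rule names is not reported here.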

Additional observations from a re-analysis of the deposited data

How the results depend on the processing

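Counts between the libraries were recomputed under 19 alternatives, contrasts between gates under 12 and the member share under 11. Of these values 100 stayed within 1.5 times the main one and 21 moved by more. All 11 values of the member share counted as within 1.5 times, although its log2 ratio, -0.61 in the main analysis, ranged from -0.82 to -0.07. The value of -0.07 came at an Epx and Prg2 minimum of 5 per 10,000 (28 and 28 members). The 725 genes higher than in other cells became 391 with 1 UMI of Epx and Prg2, 1455 at 5 per 10,000, 1118 with a basophil limit of 2, 1112 within limits and 2047 in the upper granule bins. The 541 genes higher than in the primary granule gate became 1071, 848, 868 and 1666 under the last 4 of these, and in the upper bins the 319 lower genes became 608 and the 121 genes lower than in the basophil gate became 196. Between the libraries, the 59 higher genes became 91 by means over cells, 379 with a minimum of 10 UMIs, 12 with 200 and 29 in the upper bins. The 41 lower genes became 16 at 5 per 10,000, 92 by means over cells, 80 without each gene's top cell, 625 with 10 UMIs, 5 with 200 and 6 in the upper bins. Between the libraries, fewer cells and another UMI minimum change which genes are measured (3067 in all members, 2289 within limits). Against the primary granule gate the number measured hardly changed, at 12444 in all members and 12443 within limits. The higher genes there still went from 541 to 868. The UMI minimum between gates was taken over both gates, so a gene could pass it with few or no UMIs in members. The shares of all genes past 2-fold can include such genes. What moved these counts was not tested.

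Between the libraries the median of immediate early genes ranged from 0.78 to 1.08, that of the G2 and M list from 0.19 to 0.78 and that of the S list from -0.52 to -0.17. The granule list, at 0.55, reversed to -0.21 at 5 per 10,000 and to -0.023 in the upper bins. Among single genes, 18 values reversed. At 5 per 10,000 Ltf was 0.12, Ngp 0.35, S100a9 0.83, Lcn2 0.0024 and Camp 0.42. Within limits Ltf was 0.14, Ngp 1.31, S100a9 1.08 and Camp 0.73, and in the upper bins 0.15, 0.73, 0.68 and 1.15. These rest on few UMIs within limits (2 and 3 for Ltf, 6 and 4 for Ngp, 7 and 7 for Camp, 41 and 32 for S100a9), and the limits cap Ltf, Ngp and Camp. With a basophil limit of 2, Mzb1 was -0.29, Iglc2 -0.41 and Igkc -0.99. Igkc was -0.075 with no basophil limit and Ly6c2 0.039 with 1 UMI of Epx and Prg2. The causes were not tested. No paired analysis was possible because each group is 1 library with no replicate number. The main limits are the 31 and 45 cells, the sparse Epx, Il5ra and Ear counts, and the unknown number of animals.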

Other observations

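Cells rich in Prg2 also lay outside the rule. At 20 or more Prg2 UMIs per 10,000 there were 29 such cells in FMT-young and 55 in FMT-aged, of which 25 and 31 had no Epx UMI and 3 and 21 had exactly 1. Within the same limits and below the basophil limit, 16 and 9 remained. Of these, 14 and 8 had a Prg3 UMI, 15 and 9 a Cebpe UMI and 13 and 6 a Cpa3 UMI, and the highest held 1034 and 995 Prg2 UMIs. Epx was at 0 UMIs in 14 of the 16 and 5 of the 9, and no other genes were compared in them.

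Of the wider gene lists in members, the cytosolic heat shock genes had 9 higher and 3 lower in FMT-young, with a median log2 ratio of 0.12. The secretory genes had 13 higher and 7 lower, with a median of 0.07, close to the -0.07 of all genes. Within limits the heat shock genes had 7 higher and 5 lower, with a median of 0.09. The secretory genes there had 11 higher and 9 lower, with a median of 0.02. Against the primary granule gate, 7 of 17 stem and progenitor genes tested within limits were past 2-fold higher in both libraries (Angpt1, Cpa3, Gata2, Ifitm1, Meis1, Myb, Sox4) and 3 lower (Flt3, Ly6a, Myl10), where 6.98% and 3.8% of all genes were.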
